A study of Mus musculus with 24 samples.

Results

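Gene deserts, long stretches of genome with no protein-coding gene, held 27968 of the 144257 MYT1L sites that were mapped in mouse cortex. A site was counted when its midpoint lay outside every protein-coding gene and over 100 kb from the nearest protein-coding transcription start, and when under 50% of its central 150 bp was annotated as repeat. These sites numbered 2288 of 14477 in E18.5 wild-type (WT) cortex, 6319 of 40698 in P0 WT, 6718 of 32145 in adult WT and 12643 of 56937 in adult heterozygotes (HET). In CUT&RUN an antibody, here against MYT1L, tethers a nuclease that releases the bound DNA, and it was performed on dissociated cells of mice labelled C57BL/6J, from the cortex of E18.5 embryos and the prefrontal cortex of newborn (P0) and 3-month-old (adult) mice. HET mice carry 1 copy of Myt1l with a frameshift deletion in the germline, hence in every cell type, and the other groups carry none. Each group had 3 MYT1L libraries and 3 IgG libraries. The sex of the mice is labelled unknown. Each site list was merged over the 3 MYT1L libraries of a group, with positions and no height, so no value below has a replicate error, and a p-value compares lists of sites, not conditions. Sequencing run 1 held the E18.5 and P0 libraries and run 2 both adult groups, and a difference of age between P0 and adult lists cannot be told apart from one of run. Library depth was unknown, and lists of unequal length were therefore compared mainly by shares. Intervals are exact 95% binomial intervals that cover counting error only. Except in the test of single deserts, each listed site was counted as 1 unit. Neighbouring sites are not independent, so p-values can be too small and intervals too narrow.

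MYT1L, a zinc finger protein made by neurons, acts mainly as a repressor of transcription and recognises the core motif AAAGTT. Deserts often lie beside genes for transcription factors, adhesion molecules and signalling proteins, whose control regions can be spread over very long distances. Enhancers of this kind work on a promoter far away along the chromosome. The assignment of a site to a flanking gene is a statement of position, and none of the data below measure contact with a promoter.

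The following windows of 150 bp, centred on site midpoints and read from the plus strand of GRCm38 (mm10), are examples. They were picked for site width and for a given word in the window, so they are not typical of desert sites. The first set holds, for 4 of the 5 deserts with most P0 sites, the widest P0 site whose window contains AAAGTT. Capitals mark AAAGTT and TTGGCA, the word of nuclear factor I (NFI) proteins, on either strand (AACTTT and TGCCAA when read from the other strand).
Tmem182 to Pou3f3, chr1:41674880-41675029: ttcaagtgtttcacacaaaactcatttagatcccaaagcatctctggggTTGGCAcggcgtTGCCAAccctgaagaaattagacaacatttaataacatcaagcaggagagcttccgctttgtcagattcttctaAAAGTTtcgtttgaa
Pou3f2 to Mms22l, chr4:23831559-23831708: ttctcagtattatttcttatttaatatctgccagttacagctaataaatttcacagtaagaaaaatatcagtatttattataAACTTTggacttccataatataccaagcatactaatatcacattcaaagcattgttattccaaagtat
Sel1l to Flrt2, chr12:93160524-93160673: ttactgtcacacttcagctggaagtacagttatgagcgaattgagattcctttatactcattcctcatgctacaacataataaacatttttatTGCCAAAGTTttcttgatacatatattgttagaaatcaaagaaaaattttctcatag
Ubash3b to Sorl1, chr9:41588082-41588231: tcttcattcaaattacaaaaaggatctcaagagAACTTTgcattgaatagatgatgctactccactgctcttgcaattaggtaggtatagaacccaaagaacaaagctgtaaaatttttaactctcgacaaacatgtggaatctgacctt
The window in the Pou3f3 desert, 869 kb from the nearest protein-coding start, held TTGGCA on both strands besides AAAGTT. In the window between Sel1l and Flrt2 the words TGCCAA and AAAGTT overlapped by 2 bases. All 4 of these sites were also in the E18.5 list, and the site between Ubash3b and Sorl1 was in the HET list as well.

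The second set holds the 3 widest HET sites with AAAGTT in the window that overlapped a site of every other list, with the same marking.
Cdh8 to Cdh11, chr8:102000615-102000764: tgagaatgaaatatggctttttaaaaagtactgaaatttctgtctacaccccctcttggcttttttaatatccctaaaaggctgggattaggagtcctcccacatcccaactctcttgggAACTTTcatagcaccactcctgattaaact
Sel1l to Flrt2, chr12:95388261-95388410: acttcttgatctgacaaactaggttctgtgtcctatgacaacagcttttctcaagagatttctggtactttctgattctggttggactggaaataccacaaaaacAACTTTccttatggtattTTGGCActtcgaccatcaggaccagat
Arpp21 to Pdcd6ip, chr9:113507710-113507859: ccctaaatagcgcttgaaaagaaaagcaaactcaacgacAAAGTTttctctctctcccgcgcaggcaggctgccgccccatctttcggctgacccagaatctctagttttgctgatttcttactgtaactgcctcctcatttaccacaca
These sites were 433, 361 and 323 bp wide in the HET list. The third set holds the 2 widest adult WT sites with TGACTC, the core word of AP-1 factors such as Fos and Jun, that were in the HET list and in neither younger list. Here the capitals mark TGACTC, or GAGTCA when read from the other strand.
Immp2l to Dnajb9, chr12:43827395-43827544: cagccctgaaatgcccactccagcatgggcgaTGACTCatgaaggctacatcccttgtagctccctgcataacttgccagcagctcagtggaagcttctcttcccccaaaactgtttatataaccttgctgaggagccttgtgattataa
Klhl29 to Apob, chr12:7422045-7422194: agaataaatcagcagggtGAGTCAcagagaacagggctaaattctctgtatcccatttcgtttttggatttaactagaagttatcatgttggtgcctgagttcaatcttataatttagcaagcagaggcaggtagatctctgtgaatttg

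Desert sites made up a larger share of the adult lists than of the younger lists. E18.5 had a share of 15.8% (15.2 to 16.4) and P0 one of 15.5% (15.2 to 15.9), adult WT one of 20.9% (20.5 to 21.3) and HET one of 22.2% (21.9 to 22.5). Of all 150 bp windows of the genome 19.1% met the rule, so both younger lists lay below this share and both adult lists above it. Without the repeat limit both adult shares were again above both younger shares, but the adult WT share of 26.3% then lay below the 31.5% of genome windows. The repeat limit removed 3.54% of desert-positioned sites for E18.5, 7.47% for P0, 20.5% for adult WT and 32.2% for HET, against 39.2% of desert windows. The sites also differed in shape between lists, with a median width of 612.5 bp at E18.5, 284 bp at P0, 163 bp in adult WT and 107 bp in HET. The median GC content of the central window was 38.7% at E18.5 and P0, 38% in adult WT and 35.3% in HET, beside 38.7% over desert windows. Just inside the distance limit, 97, 300, 272 and 408 sites of the E18.5, P0, adult WT and HET lists lay 100 to 110 kb from a start, and just outside it 105, 318, 307 and 470 sites lay at 90 to 100 kb.

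Sites were spread over many deserts. The rule defined 1930 deserts, whose cores covered 903 Mb in all and 507 Mb of windows under the repeat limit (unmasked desert). The E18.5 list had a site in 728 of them (37.7%), P0 in 1066 (55.2%), adult WT in 1137 (58.9%) and HET in 1305 (67.6%). In 611 deserts every list had a site, and 445 deserts had none in any list. The 10 deserts with most sites held 9.13% of E18.5, 8.58% of P0, 6.40% of adult WT and 6.22% of HET desert sites, and the 10 largest deserts made up 5.09% of unmasked desert. Sites stood closer to each other at P0, where 32.9% (31.8 to 34.1) had another desert site of the list within 5 kb, than at E18.5 (16.2%) or in adult WT (22.5%), although the lists differ in length. The X chromosome held 5.64% of desert windows but 32 of the 2288 E18.5 sites, 1.71% of P0, 3.50% of adult WT and 1.94% of HET desert sites. No list had a desert site on the Y chromosome.

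With sites counted as listed, the desert between Tmem182 and Pou3f3 on chromosome 1 held more sites than any other at both E18.5 and P0. Pou3f3 encodes a POU-domain transcription factor of upper-layer cortical neurons. Its 1.69 Mb core held 39 E18.5, 119 P0, 19 adult WT and 30 HET sites, which is 1.70%, 1.88%, 0.283% and 0.237% of the desert sites of each list. With sites within 2 kb of each other joined, the counts were 28, 47, 19 and 30. The P0 and adult WT shares were then 0.878% and 0.308%, and the core between Sel1l and Flrt2 held more joined P0 sites (54). The sites between Tmem182 and Pou3f3 covered 38.9 kb at E18.5 and 58.0 kb at P0, but 3.40 kb in adult WT and 3.54 kb in HET. They were clustered at P0, where 29 of the 119 lay 800 to 900 kb from the Pou3f3 start, and the lncRNA gene Gm29260 alone spanned 36 P0, 11 E18.5, 2 adult WT and 2 HET sites. The adult sites were spread over the whole core, as the map of sites shows.

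**Figure D1:**
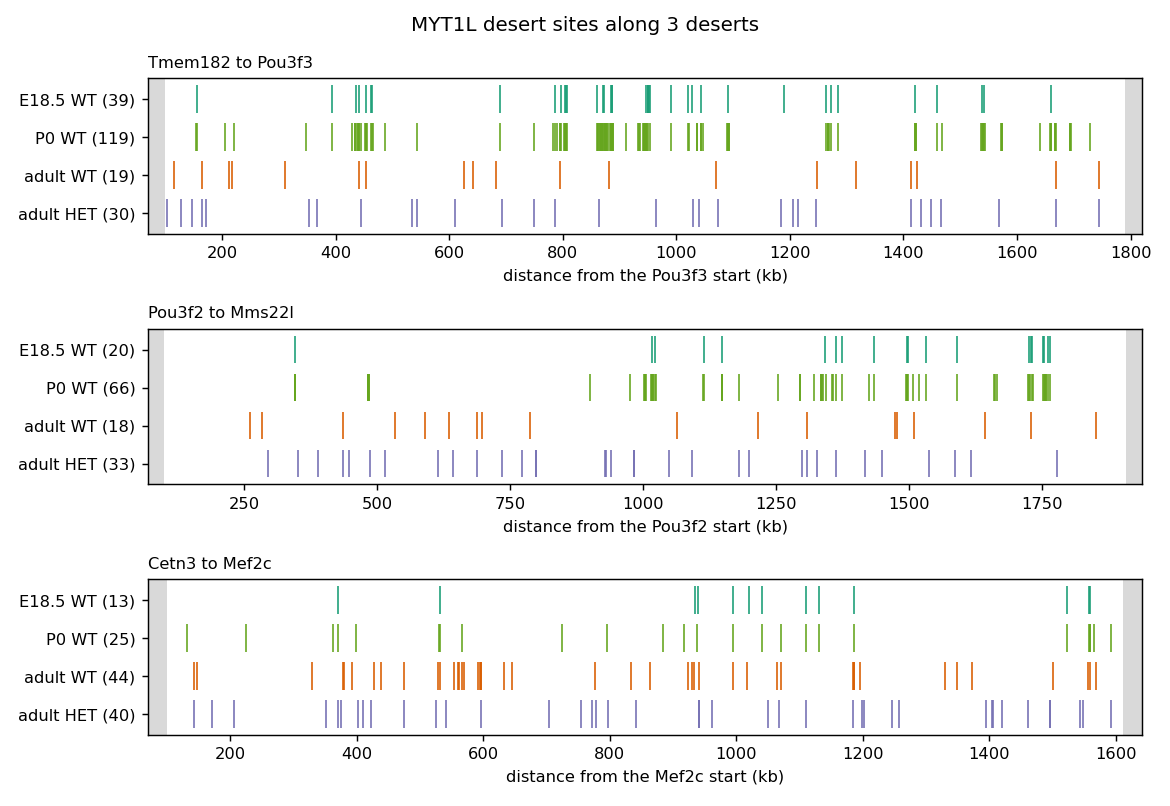
Positions of desert sites of the 4 lists (1 line each, with the number of sites) in 3 deserts, as distance in kb from the start of the gene named on the axis. Each tick is a site midpoint and grey marks the ends of the core. The P0 line of the Tmem182 to Pou3f3 desert has 119 sites, many of them in clusters, against 19 in adult WT.

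The related gene Pou3f2 flanked the desert that followed at P0 by sites as listed. The core between Pou3f2 and Mms22l on chromosome 4 held 20 E18.5, 66 P0, 18 adult WT and 33 HET sites. It also held the widest desert site of both younger lists, at chr4:23825306-23833904 (8599 bp) in E18.5 and at chr4:23829532-23833736 (4205 bp) in P0, 667 and 665 kb from the nearest protein-coding start. No adult site overlapped either of these, and the central window of the P0 site had a GC content of 25.3%. The younger sites lay on the far side of the desert, with medians of 1497 kb (E18.5) and 1336 kb (P0) from the Pou3f2 start, compared with 925 kb in adult WT and 940 kb in HET.

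The core between Sel1l and Flrt2 on chromosome 12 held 22 E18.5, 58 P0, 45 adult WT and 73 HET sites. Flrt2 encodes an adhesion molecule that repels migrating neurons. On chromosome 18, 20 E18.5, 38 P0, 9 adult WT and 20 HET sites lay between Zfp608 and Gramd3. On chromosome 9, the core between Ubash3b and Sorl1, a sorting receptor of the amyloid precursor protein, held 18, 50, 7 and 13 sites. Most of the latter lay inside the lncRNA gene 3110039I08Rik, which spanned 14 E18.5, 43 P0, 7 adult WT and 11 HET sites. Within 5 kb of the microRNA gene Mir125b-1 in this desert, which was picked after its values were seen, were 4 E18.5, 6 P0, 0 adult WT and 1 HET sites.

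The adult lists were led by other deserts. In adult WT the desert with the largest count lay between Celf4 and Pik3c3 on chromosome 18, where the 4 lists held 18, 41, 55 and 88 sites. Its unmasked core was 3.12 Mb, and its 55 sites were 0.819% of adult WT desert sites. Celf4 encodes an RNA-binding protein of neurons. Next were the desert between Celf2, a related RNA-binding protein, and Gata3 on chromosome 2 (11, 27, 50 and 53 sites) and Sel1l to Flrt2. The desert between Cetn3 and Mef2c, a transcription factor of neuronal activity, held 13, 25, 44 and 40 sites on chromosome 13. Between Arpp21, a regulator of dendrite growth, and Pdcd6ip on chromosome 9 the counts were 9, 18, 42 and 37. In HET, the deserts behind Celf4 to Pik3c3 were Pcdh20 to Pcdh9 on chromosome 14 (9, 24, 33 and 84 sites), Pcdh7 to G6pd2 on chromosome 5 (6, 17, 16 and 83), Zeb2 to Acvr2a on chromosome 2 (8, 19, 27 and 80) and Igfbp7 to Adgrl3 on chromosome 5 (15, 39, 22 and 79). Of their flanking genes, Pcdh7, Pcdh9 and Pcdh20 encode protocadherins, Adgrl3 a synaptic adhesion receptor and Zeb2 a transcription factor of interneuron and glial development. The unmasked cores of these 4 HET deserts were between 2.12 and 2.69 Mb.

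**Figure D2:**
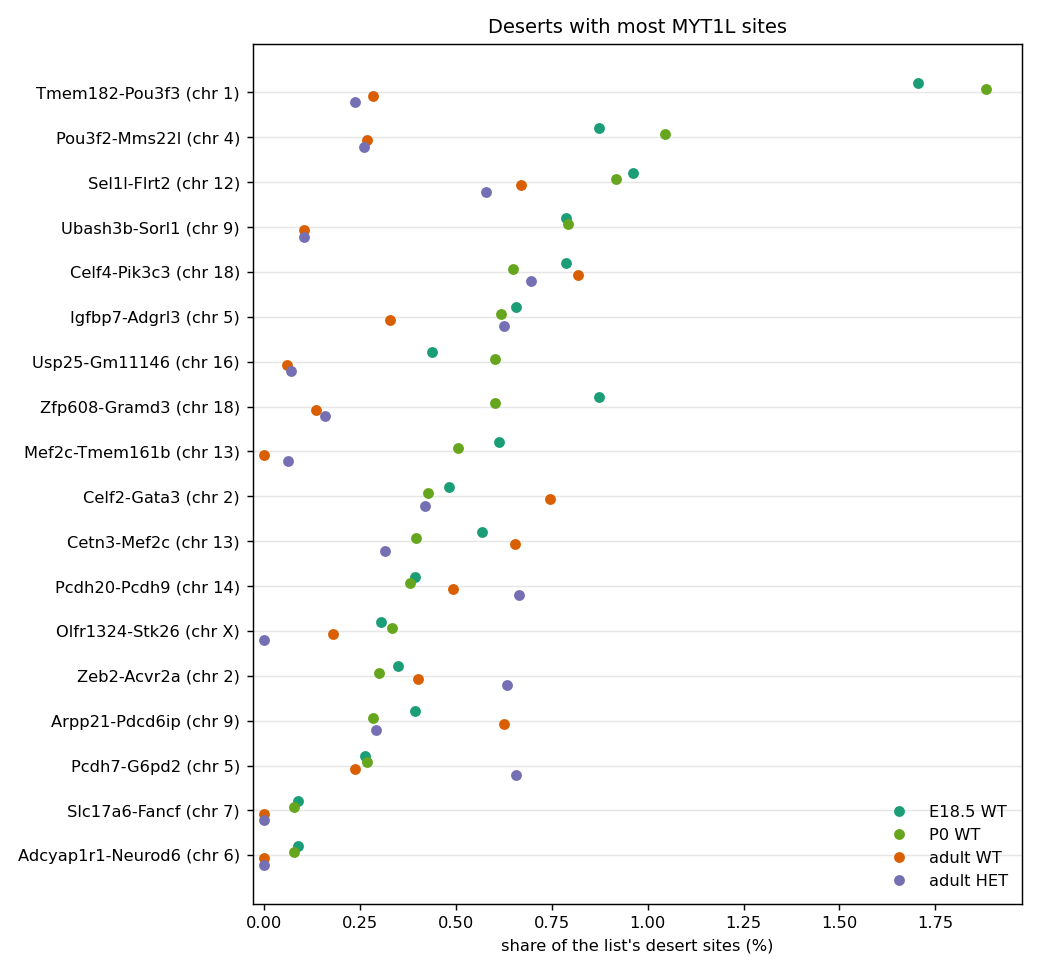
Share of the desert sites of each list, in percent, that lay in each of 18 deserts named by the rule on most sites or highest density. Each point is a list, with sites counted as listed and not joined. The younger lists stand to the right in Tmem182 to Pou3f3 (1.70% and 1.88%, against 0.283% and 0.237% in the adult lists), while HET stands to the right in Pcdh7 to G6pd2 (0.656%, against 0.238% in adult WT).

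Deserts were also ranked by E18.5 and P0 sites per Mb of core, among those with at least 5 such sites. This rule favours small cores and used only the younger lists. Lower adult counts in the deserts it picked are therefore no separate result. A core of 0.021 Mb between Adcyap1r1, the receptor of the neuropeptide PACAP, and Neurod6, a transcription factor of excitatory cortical neurons, held 2 E18.5 and 5 P0 sites and 0 in either adult list. Between Slc17a6, a vesicular glutamate transporter, and Fancf the counts were also 2, 5, 0 and 0. The core between Usp25 and Gm11146 (next to Cxadr) on chromosome 16 held 10 E18.5, 38 P0, 4 adult WT and 9 HET sites. The third widest P0 desert site (3801 bp) lay there at the start of Mir99ahg, the lncRNA that hosts Mir99a. The desert between Mef2c and Tmem161b, on the other side of Mef2c from the one above, had 14 E18.5, 32 P0, 0 adult WT and 8 HET sites. On the X chromosome, the desert between Olfr1324 and Stk26 held 7, 21, 12 and 0 sites, and the lncRNA gene Firre in it spanned 7, 17, 12 and 0.

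For a test of single deserts, sites of a list within 2 kb of each other were joined and counted once, since neighbouring sites are not independent, and the share of the joined sites of a list that lay in a desert was compared between lists by Fisher's exact test with Benjamini-Hochberg adjustment. This test was added after the data were seen. Between P0 and E18.5, 0 of 256 deserts had a higher share at P0 (0%) and 0 a lower share (0%), and at an unadjusted p under 0.05 the counts were also 0 and 0. These lists are not independent, as 87.0% of E18.5 desert sites overlapped a P0 site. Between adult WT and P0, 4 of 390 deserts had a higher share (1.03%) and 5 a lower share (1.28%) in adult WT. The 5 lower ones included Tmem182 to Pou3f3, with 47 joined sites at P0 and 19 in adult WT (odds ratio 0.348, interval 0.204 to 0.594, Fisher's exact adjusted p = 0.0044). Zfp608 to Gramd3 fell from 33 to 9 (odds ratio 0.235, interval 0.112 to 0.492, adjusted p = 0.0044) and Ubash3b to Sorl1 from 24 to 7 (odds ratio 0.252, interval 0.108 to 0.585, Fisher's exact adjusted p = 0.044). The other two, outside the rule for named deserts and chosen after their values were seen, were Adgrl2 to Adgrl4 (36 and 11 joined sites) and Med10 to Ice1 (20 and 5). The 4 higher ones were likewise outside the rule. Deserts named for their adult WT counts were thus not called higher in adult WT. Celf4 to Pik3c3 had 36 joined sites at P0 and 50 in adult WT (Fisher's exact adjusted p = 0.81). Celf2 to Gata3 had 24 and 44 (Fisher's exact adjusted p = 0.34) and Cetn3 to Mef2c 22 and 38 (Fisher's exact adjusted p = 0.48). For Arpp21 to Pdcd6ip they were 13 and 33 (Fisher's exact adjusted p = 0.15). Some named deserts with many more P0 than adult WT sites were not called. Pou3f2 to Mms22l had 31 and 18 joined sites (Fisher's exact adjusted p = 0.17) and Usp25 to Gm11146 had 14 and 3 (Fisher's exact adjusted p = 0.074). Mef2c to Tmem161b, with 9 and 0, fell short of the 10 joined sites in both lists together that the test required.

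Of the 4 deserts with a higher share in adult WT than at P0, 3 are given here. They were Cypt14 to Gria3 (0 and 16 joined sites) and Cnksr2 to Rps6ka3 (2 and 18), both on the X chromosome, and the region before Olfr161 on chromosome 16 (1 and 16). Antigen receptor segments are not classed as protein-coding genes in the annotation, so the rule took such loci for deserts. The immunoglobulin heavy chain locus, between Adam6a and Zfp386 with 181 segments, held 0 E18.5, 1 P0, 11 adult WT and 29 HET sites, and the T cell receptor alpha locus, between Olfr1507 and Dad1 with 138 segments, held 2, 4, 4 and 11.

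Between HET and adult WT, 2 of 534 deserts had a higher share in HET (0.375%) and 2 a lower share (0.375%). The higher ones were Igfbp7 to Adgrl3, with 15 joined sites in adult WT and 76 in HET (odds ratio 2.62, interval 1.505 to 4.56, Fisher's exact adjusted p = 0.039), and Pcdh7 to G6pd2, with 16 and 79 (odds ratio 2.55, interval 1.49 to 4.37, adjusted p = 0.039). With sites as listed the first of these calls was lost (22 and 79 sites, odds ratio 1.91, Fisher's exact adjusted p = 0.158). The lower ones were the same X-linked deserts, Cypt14 to Gria3 (16 and 5) and Cnksr2 to Rps6ka3 (18 and 8). The lower X share of the HET list (1.94%, against 3.50% in adult WT) moved with these calls, and its part in them was not tested.

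Flanking genes were grouped by 6 gene lists, which were chosen with earlier results of these data known. Deserts beside forebrain transcription factors held more sites per Mb of unmasked desert than the mean desert in the younger lists, with 1.80 times its density at E18.5 and 1.66 times at P0, but 0.971 times in adult WT and 0.882 times in HET. Sites were counted as listed. The deserts of Pou3f3 and Pou3f2 alone gave 119 and 66 of the 884 P0 sites beside these genes, or 47 and 31 joined sites. Of the 96 genes of this list, 69 flanked a total of 100 deserts, of which 65, 83, 74 and 82 had a site in E18.5, P0, adult WT and HET. The median over these deserts was 4.67 E18.5 sites per Mb and 13.5 P0 sites per Mb, beside 0 and 6.24 over all deserts. In adult WT it was 8.95 beside 7.54, and in HET 18.2 in both. These deserts were larger, with a median of 0.337 Mb of unmasked desert beside 0.112 Mb over all deserts. The part of desert size in these medians was not tested. Besides the deserts of Pou3f3, Pou3f2, Mef2c and Zfp608, P0 sites of this list were numerous in deserts that flanked Sox11 on both sides (25 sites toward Cmpk2 and 22 toward Dcdc2c) and Nr2f1 toward Arrdc3 (21), followed by Zeb2 and Bcl11a with 19 each. These are counts, not densities, in unmasked cores from 0.533 Mb (Cmpk2 to Sox11) to 2.41 Mb (Zeb2 to Acvr2a). Zeb2 to Acvr2a held 7.87 P0 sites per Mb, below the P0 mean of 12.5. Transcription factors of other tissues, with 64 deserts, stood at 0.777, 1.05, 0.770 and 0.878 times the mean density in E18.5, P0, adult WT and HET.

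Deserts beside neuronal adhesion and guidance genes were large, 141 deserts with 21.9% of unmasked desert, and followed the reverse order, with 0.841, 0.897, 0.949 and 1.14 times the mean density. They held 3161 of the 12643 HET desert sites. Their median density was nevertheless above that of all deserts in each list, at 2.26, 9.09, 11.4 and 27.1 sites per Mb beside 0, 6.24, 7.54 and 18.2. Their median size was 0.507 Mb of unmasked desert beside 0.112 Mb over all deserts. Deserts beside ion channels and transmitter receptors (75 deserts) stood at 0.885, 0.862, 1.09 and 1.06 times, and those beside secreted signals and their modulators (50 deserts) at 0.599, 0.810, 0.911 and 0.903 times. Olfactory and vomeronasal receptor genes flanked 40 small deserts at 1.01, 1.07, 1.49 and 0.741 times, where 4, 9, 11 and 16 deserts had a site. These are descriptions with no test, and the members of each list differ in desert size.

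A larger share of HET desert sites lay far from genes than in the other lists. HET density rose from 21.8 sites per Mb of unmasked desert at 100 to 200 kb from a start to 24.6 at 200 to 500 kb, 27.8 at 500 to 1000 kb and 30.7 beyond 1000 kb. The P0 density went the other way, from 13.6 to 12.9, 11.3 and 9.45, and adult WT went from 13.4 to 13.6, 13.0 and 11.4. At E18.5 it was 4.63, 4.72, 4.39 and 3.42. Sites over 500 kb from a start made up 33.6% (32.8 to 34.4) of HET desert sites and 27.7% (26.7 to 28.8) of adult WT ones (odds ratio of adult WT to HET 0.758, interval 0.710 to 0.809, adjusted p = 1.2e-16, Fisher's exact test over 6 pairs of lists). They made up 25.2% at P0 and 26.6% at E18.5, against 29.3% of desert windows. The E18.5 to HET odds ratio of 0.717 (Fisher's exact adjusted p = 5.8e-11) did not pass the threshold within classes of GC content (0.899, interval 0.811 to 0.996, chi-square adjusted p = 0.083), whereas that of P0 to HET did (0.829, chi-square adjusted p = 1.3e-06). Windows far from genes were poorer in GC, with a median of 34.7% beyond 1000 kb and 40.7% at 100 to 200 kb. Within classes of GC content the adult WT to HET odds ratio was 0.882 (interval 0.825 to 0.943, adjusted p = 7.2e-04, Cochran-Mantel-Haenszel chi-square test). The P0 to adult WT difference (odds ratio 0.878, Fisher's exact adjusted p = 0.0017) did not pass the threshold within GC classes (0.934, interval 0.862 to 1.01, adjusted p = 0.14).

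**Figure D3:**
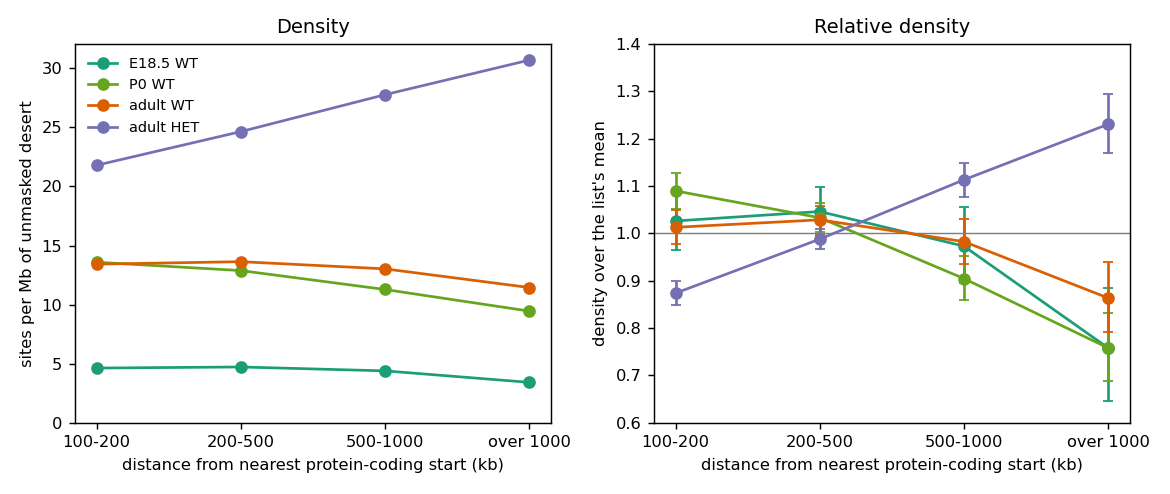
Desert sites per Mb of unmasked desert (left) and the same divided by the mean density of the list (right) in 4 classes of distance from the nearest protein-coding start, in kb. Bars on the right are exact 95% binomial intervals of the share of sites in a class. HET rises from class to class, from 21.8 to 30.7 sites per Mb.

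Most adult desert sites were in 1 list only. Nearly all E18.5 desert sites overlapped a P0 site (1991 of 2288, 87.0%), and 34.5% (33.3 to 35.7) of P0 desert sites overlapped an E18.5 site. Of adult WT desert sites 6.94% overlapped a P0 site and 8.38% a HET site, and of HET desert sites 1.91% overlapped a P0 site and 4.63% an adult WT site. Low sharing of the adult lists was not particular to deserts. Over all sites of the list, 10.4% of adult WT sites overlapped a P0 site and 8.38% a HET site. Of all HET sites 3.42% overlapped a P0 site and 4.90% an adult WT site, and of all E18.5 sites 88.3% overlapped a P0 site. A comparison was made with sites of the same list lying 5 to 100 kb from a start, outside genes and under the same repeat limit, by Fisher's exact test adjusted over 12 ordered pairs of lists. HET desert sites were less often shared than these nearer intergenic sites, with P0 (1.91% against 3.15%, odds ratio 0.597, interval 0.5003 to 0.711, Fisher's exact adjusted p = 1.1e-07), E18.5 (1.24% against 2.10%, odds ratio 0.586, adjusted p = 6.8e-06) and adult WT (4.63% against 5.78%, odds ratio 0.792, adjusted p = 6.5e-04). Adult WT desert sites were less often shared with P0 (6.94% against 8.29%, odds ratio 0.825, interval 0.722 to 0.942, Fisher's exact adjusted p = 0.011), a difference that was lost among sites wider than the median of the list (odds ratio 0.970, adjusted p = 0.78). P0 desert sites were more often shared with E18.5 than the nearer sites were (34.5% against 30.6%, odds ratio 1.20, interval 1.11 to 1.29, Fisher's exact adjusted p = 6.8e-06). Over all P0 sites the share was 34.8%, close to that of the desert sites. The other 7 pairs did not pass the threshold. For adult WT sites in HET, for example, the odds ratio was 0.980 (interval 0.864 to 1.11).

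**Figure D4:**
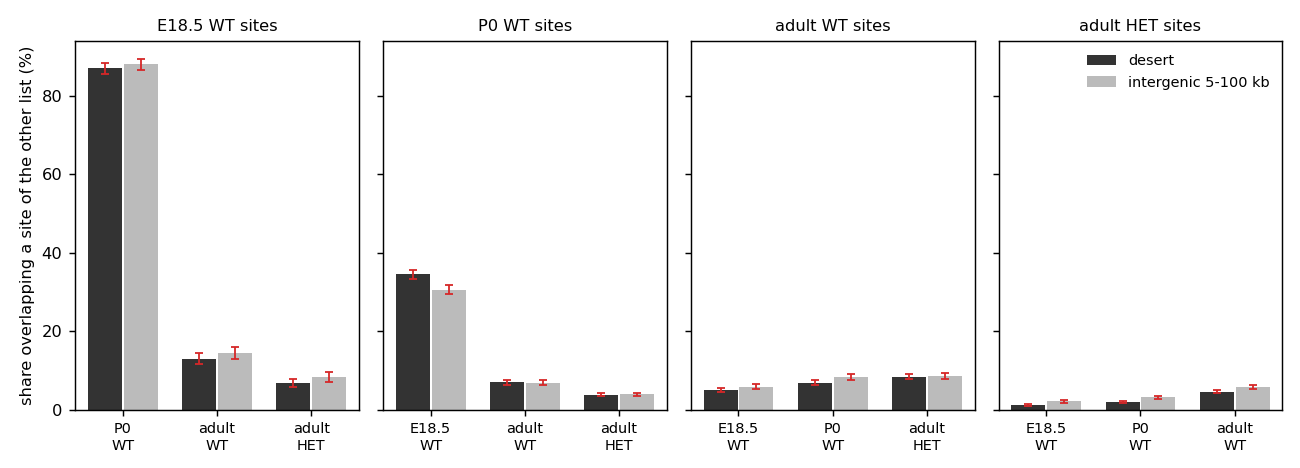
Share of sites of a list (panel title) that overlapped a site of another list (axis) by at least 1 bp, in percent, for desert sites (dark) and for intergenic sites 5 to 100 kb from a protein-coding start (light). Red bars are exact 95% binomial intervals. In the HET panel the dark bars are lower for every other list, for example 1.91% against 3.15% with P0.

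Joined over the lists, desert sites formed 24542 loci. Of these 89.0% were in a single list, among them 11893 in HET, 5740 in adult WT, 3931 in P0 and 285 in E18.5. These counts follow the order of the lists by number of desert sites. The share of loci in a single list was not computed outside deserts. E18.5 and P0 alone shared 1607 loci, while adult WT and HET alone shared 462. All 4 lists had a site in 66 loci in 60 deserts. Sites of different lists within such a locus need not overlap each other. At chr18:54452097-54453796, for example, the adult WT site (54453586-54453694) and the HET site (54452771-54452873) lay apart. Of the 10 loci of all 4 lists with most bp in sites, 9 are given here. The locus chr4:81563830-81569122 lay between Mpdz and Nfib, which encodes an NFI protein, with 5293 bp of E18.5 sites, 2934 bp of P0, 470 bp of adult WT and 203 bp of HET. The next were chr9:23579822-23582424 (Bmper to Npsr1), chr12:6637649-6639470 (Klhl29 to Apob) and chr13:79784353-79786060 (Nr2f1 to Arrdc3). The last of these held the widest desert site of adult WT, at chr13:79784649-79785789 (1141 bp), and of HET, at chr13:79784964-79785529 (566 bp), 1098 kb from the nearest protein-coding start. Nr2f1 encodes a nuclear receptor that patterns cortical areas. The remaining 5 were chr6:14185502-14187244 (2610001J05Rik to Ppp1r3a), chr14:112464919-112466871 (Slitrk5 to Tpm3-rs7), chr6:138800537-138802519 (Igbp1b to Rergl), chr9:113176769-113178201 (Arpp21 to Pdcd6ip, inside the lncRNA gene Gm4657) and chr12:14870643-14872406 (Fam84a to Trib2). None of the 10 had a lncRNA or microRNA start within 1 kb. Slitrk5 encodes a synaptic adhesion protein.

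Desert sites of the younger lists lay at lncRNA starts more often than adult ones. At E18.5 2.67% (2.05 to 3.41) and at P0 2.66% (2.28 to 3.09) of desert sites lay within 1 kb of a lncRNA start, against 0.843% of desert windows, 1.01% in adult WT and 0.759% in HET. The odds ratio of P0 to adult WT was 2.67 (interval 2.01 to 3.55, adjusted p = 2.7e-12, Fisher's exact test over 6 pairs), and that of adult WT to HET was 1.34 (interval 0.978 to 1.83, adjusted p = 0.084). Sites were not joined for this test, and neighbours at the same start each counted. CpG-rich windows, with at least 6 CpG in 150 bp, made up 2.40% of E18.5, 2.53% of P0, 0.640% of adult WT and 0.245% of HET desert sites, beside 0.517% of desert windows.

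The MYT1L word AAAGTT was searched on both strands in the central 150 bp. This window was wider than most HET sites (upper quartile of width 131 bp) and many adult WT sites (lower quartile 120 bp). At E18.5 the lower quartile was 464 bp. In narrow sites a counted word can lie outside the site, and the GC content includes flanking bases. This holds for every word below, and its part in differences between lists was not tested. AAAGTT was found in 20.3% of E18.5, 18.3% of P0, 15.9% of adult WT and 16.5% of HET desert sites, and in 13.9% of all desert windows. Desert windows of the same GC content held it in 13.4%, 13.5%, 14.2% and 16.0%. The ratio of observed to GC-matched share was 1.51 (1.39 to 1.64) for E18.5, 1.36 (1.29 to 1.43) for P0, 1.12 (1.06 to 1.18) for adult WT and 1.03 (0.987 to 1.07) for HET, the last with 1 inside its interval. Among sites wider than the median of their list the ratios of E18.5, P0 and adult WT lay close together, at 1.35, 1.33 and 1.31. That of HET was 1.05. Pairs of lists were not tested on these wider sites. Between lists, Fisher's exact test adjusted over 6 pairs called every pair (E18.5 to adult WT odds ratio 1.35, interval 1.20 to 1.52, adjusted p = 1.1e-05) other than adult WT to HET (0.959, interval 0.885 to 1.04, adjusted p = 0.32). Within GC classes the latter turned to 1.10 (interval 1.02 to 1.20, adjusted p = 0.025, Cochran-Mantel-Haenszel chi-square test). E18.5 and P0 were separated only narrowly (1.14, interval 1.01 to 1.28, Fisher's exact adjusted p = 0.048), and not with a repeat limit of 25% (adjusted p = 0.091). With windows of 250 bp on each side of the midpoint only E18.5 to adult WT was still called (1.14, Fisher's exact adjusted p = 0.042). The calls were then lost for E18.5 to P0 (1.11), E18.5 to HET (1.08) and P0 to adult WT (1.02), and P0 to HET turned to 0.966, which was not called.

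Desert sites held AAAGTT more often than nearer intergenic sites of the same list in all 4 lists, with odds ratios of 1.26 for E18.5, 1.39 for P0, 1.14 for adult WT and 1.16 for HET (adjusted p = 0.0038, 2.9e-11, 0.012 and 3.2e-04, Fisher's exact test over 4 lists). Nearer sites were richer in GC, with medians of 43.3%, 44%, 42% and 39.3%. Within GC classes no list passed the test, and the odds ratios were 0.992 (interval 0.845 to 1.16), 1.07 (0.968 to 1.18), 0.902 (0.814 to 1.00) and 0.955 (0.883 to 1.03). For 2 other words the difference held within GC classes in both younger lists, by the same chi-square test adjusted over 48 tests of 12 words. TTGGCA, the NFI word, had odds ratios of 1.27 at E18.5 (interval 1.08 to 1.48, chi-square adjusted p = 0.031) and 1.34 at P0 (interval 1.21 to 1.48, adjusted p = 1.3e-07). CAGATG, an E-box bound by neurogenic helix-loop-helix factors, had 1.31 (interval 1.12 to 1.54, chi-square adjusted p = 0.0090) and 1.38 (interval 1.25 to 1.52, adjusted p = 4.8e-09). The CTCF word GGNGGCAG was rarer in P0 desert sites than in nearer ones (0.548, interval 0.455 to 0.660, chi-square adjusted p = 2.6e-09). No other word of any list passed within GC classes.

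In both younger lists the words with the 3 highest ratios to GC-matched desert windows were TTGGCA (2.46 and 2.12), the POU word TGCAAAT (2.17 and 1.92) and CAGATG (1.92 and 1.64), while the homeodomain word TAATTA stood at 1.57 and 1.39. In adult WT the first 3 were lower but still above 1, at 1.37, 1.36 and 1.39, and TAATTA at 0.818, and in HET the 4 words stood at 1.06, 1.01, 1.08 and 0.980. The AP-1 word TGACTC showed 0.928, 0.889, 1.30 and 1.10 in E18.5, P0, adult WT and HET, and the EGR word GTGGGC, of another family of activity-induced factors, 0.737, 0.877, 1.57 and 1.10. TATATA, a word of TA-rich DNA, had 0.609 and 0.612 in the younger lists, 1.19 in adult WT and 1.30 in HET. Of the rest, the SOX word ACAAAG lay between 0.912 and 1.20, the T-box word AGGTGT between 0.486 and 0.951, the CRE word TGACGT between 0.875 and 1.59 and GGNGGCAG between 0.976 and 1.44. Between P0 and adult WT, TGACTC was rarer at P0 also within GC classes (odds ratio 0.662, interval 0.584 to 0.751, adjusted p = 3.1e-10, Cochran-Mantel-Haenszel chi-square test over 72 tests). Some words overlap in sequence with others, for example the last bases of TTGGCA with the first of CAGATG, and a match is not a measured binding event.

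**Figure D5:**
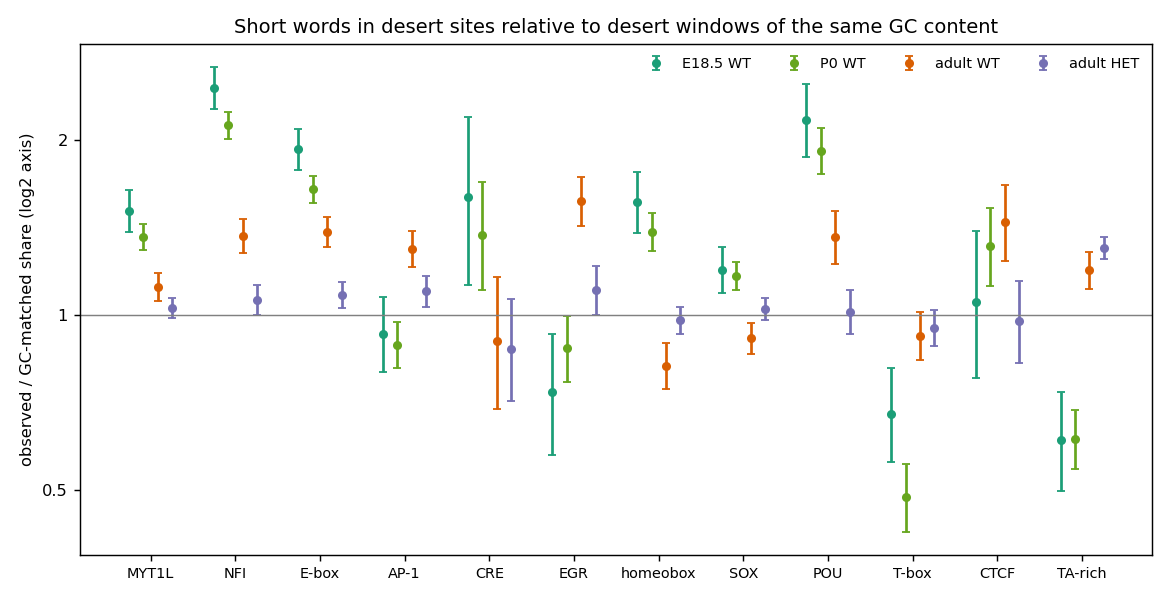
Ratio of the share of desert sites with a short word to the share in desert windows of the same GC content, on a log2 axis, for 12 words named by the factor family they belong to (MYT1L is AAAGTT, NFI is TTGGCA, E-box is CAGATG, AP-1 is TGACTC, EGR is GTGGGC, POU is TGCAAAT). Bars are exact 95% binomial intervals of the observed share. HET lies near 1 for most words, while E18.5 reaches 2.46 for NFI.

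The NFI and MYT1L words were more frequent in adult WT sites shared with P0 than in other adult WT sites. Among adult WT desert sites, the 466 that overlapped a P0 site held TTGGCA in 19.7% and AAAGTT in 20.8%, against 10.4% and 15.5% of the rest (odds ratios 2.11 and 1.43, adjusted p = 9.0e-08 and 0.041, Fisher's exact test over 12 ordered pairs). For TGACTC the shares were close there (9.66% against 9.95%, odds ratio 0.967, interval 0.704 to 1.33). Of the 563 adult WT sites that overlapped a HET site, 79 held TTGGCA, a higher share than the 10.8% of the rest (odds ratio 1.35, interval 1.05 to 1.73, Fisher's exact adjusted p = 0.042). They held TGACTC in 16.7%, against 9.31% of the rest (odds ratio 1.95, interval 1.54 to 2.48, Fisher's exact adjusted p = 2.3e-06), and AAAGTT in 17.1% against 15.8% (odds ratio 1.10, interval 0.871 to 1.38). In HET, the 586 sites that overlapped an adult WT site held TGACTC in 13.1% against 7.32% (odds ratio 1.91, interval 1.49 to 2.46, Fisher's exact adjusted p = 1.1e-05) and TTGGCA in 15.7% against 7.72% (odds ratio 2.23, interval 1.76 to 2.81, adjusted p = 5.5e-09). Width moved with sharing, with a median of 153 bp for adult WT sites in no other list and 376 bp for those in all 4, and its part in these differences was not tested.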

How the data were processed

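Reads were handled by the authors with nf-core/cutandrun, and the submitters' processing notes name build mm10. Neither aligner nor peak caller, site threshold or role of IgG is given in the sources used here. The 12 IgG libraries were not analysed here. The authors deposited 1 merged list of sites for each MYT1L group, with chromosome, start and end and no value per site. Some adult titles name Myt2l or Myt3l. They were taken as MYT1L libraries, since the label of each points to a MYT1L list. The methods name prefrontal cortex at every stage, where the labels give cortex for E18.5. The labels give C57BL/6J, where the methods describe breeding of the mutant line to C57BL/6N. The labels do not tie libraries to mice, but the methods describe cells taken per animal. Positions in the text count from 1.

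Genes were those of GENCODE vM21 on GRCm38, the assembly of mm10, with 21938 protein-coding genes. All transcription starts of these genes were used. Deserts were the gaps between merged gene bodies, with a core over 100 kb from every start. Immunoglobulin and T cell receptor segments and noncoding genes did not bound a desert. Repeats were the soft-masked bases. The genome was cut into 17649653 windows of 150 bp without unknown bases, of which 3378519 met the desert rule, and the GC-matched share averages, over the sites, the share among desert windows of the same class of 5% GC. Odds ratios have 95% Wald intervals. The tests within GC classes of distance and of words other than AAAGTT were added after the data were seen. Benjamini-Hochberg adjustment ran over the family named with each test. The members, gene lists and words were chosen with earlier results of these data known. Named deserts were the 5 with most sites in each list, with ties decided by the bp in sites (in adult WT, Arpp21 to Pdcd6ip, Cdh8 to Cdh11 and Stim2 to Pcdh7 all held 42 sites, and the first had most bp), and the 5 with most E18.5 and P0 sites per Mb of core among those with at least 5. Results of a pair of deserts are not reported here. The functions were tested on simulated data. Tools were Python 3.11.15, numpy 2.4.6, pandas 2.3.3, scipy 1.17.1, statsmodels 0.14.6 and matplotlib 3.10.9.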

Additional observations from a re-analysis of the deposited data

How the results depend on the processing

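With a limit of 200 kb the desert share came to 10.9% for E18.5, 10.4% for P0, 14.5% for adult WT and 16.3% for HET, and with 50 kb it was 20.7%, 20.5%, 26.7% and 27.1%. Without a repeat limit it moved to 16.8% at P0, 26.3% in adult WT and 32.8% in HET, and with deserts bounded by lncRNA genes as well it was 8.50%, 7.97%, 12.1% and 13.4% in list order. Of 48 overlap results under an alternative, 38 kept their direction and side of the threshold. The odds ratio of E18.5 sites in HET became called with 200 kb (0.742) and among wide sites (0.690), and that of adult WT sites in P0 was lost among wide sites (0.970). Odds ratios that were not called crossed 1 for P0 sites in adult WT (0.931 within 500 bp, 0.988 with 200 kb, 0.978 among wide sites), P0 sites in HET (1.04 within 500 bp), E18.5 sites in P0 (1.02 with overlap of at least 50% of the length, 1.17 among wide sites) and adult WT sites in HET (1.07 among wide sites). The AAAGTT ratio fell with windows of 250 bp on each side to 1.17 at E18.5, 1.10 at P0 and 1.05 in adult WT. Among wide sites it was 1.35 at E18.5, 1.33 at P0 and 1.31 in adult WT, which lay close together, and 1.05 in HET. Between lists, the wider windows lost E18.5 to P0 (1.11), E18.5 to HET (1.08) and P0 to adult WT (1.02) and turned P0 to HET (0.966). The 25% repeat limit lost E18.5 to P0 (1.13), and GC classes turned adult WT to HET (1.10). Against nearer intergenic sites, GC classes lost P0 (1.07) and turned E18.5 (0.992), adult WT (0.902) and HET (0.955). With sites as listed instead of joined, a choice made after seeing the data as was the test of single deserts itself, 21 deserts were higher and 21 lower in adult WT than at P0, and 1 higher and 10 lower in HET than in adult WT. Apart from what the alternatives change by construction, the cause was not tested. No paired analysis was possible because the lists are merged and carry no replicate, and no library could be left out for the same reason. No depth was known.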
